A study of Mus musculus with 12 samples.

Results

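How a convulsion alters the ratio of U1-bound to input RNA was measured in 12 of the 12 libraries of the series, as the log2 ratio of U1 to input after maximal electroconvulsive stimulation (MECS) minus the same log2 ratio in naive brain. The libraries form 4 groups of 3: MECS U1, MECS input, naive U1 and naive input. All came from mixed cortex and hippocampus of male C57BL6JL mice aged 3 to 5 months. MECS mice received 85 mA for 1 s at 100 Hz through ear clips and were killed after 90 min, and naive mice were handled in parallel. Tissue was irradiated with ultraviolet light at 400 mJ/cm2, which crosslinks RNA to protein, input RNA was set aside from the lysate, and the rest was precipitated with an antibody against U1-70K. A control precipitate was not analysed here, so the ratio holds every difference in recovery between the precipitate and the lysate.

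U1 is a small nuclear ribonucleoprotein that pairs with the 5′ splice site at the start of an intron and so opens spliceosome assembly. It also restrains the use of polyadenylation signals inside introns, which keeps long transcripts from ending early. U1-70K, the protein the antibody binds, is encoded by Snrnp70. Neuronal activity induces fast transcription of many genes in brain, and the comparison asks whether stimulation alters what U1 holds beyond what the change in RNA level brings.

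By the protocol and the title prefix, each U1 library was paired with the input library of the same tissue preparation. This gave 3 MECS and 3 naive preparations, and a ratio was taken within each. The labels do not say whether a preparation came from 1 mouse. Gene counts per library ranged over 704432 to 1962312, or 1.42 to 1.84% of listed reads, with the lowest in naive input 2 and the highest in naive U1 2. The summed level of 12 excitatory neuron markers was 319 to 454 CPM, counts scaled by library total, in MECS input and 346 to 447 CPM in naive input, and that of choroid plexus and ependyma markers 118 to 148 CPM in MECS input and 101 to 143 CPM in naive input. Endothelium markers did not overlap, with a sum of 264 to 305 CPM in MECS input and 310 to 340 CPM in naive input. In U1 RNA their sum was 339 to 385 CPM in MECS and 403 to 519 CPM in naive preparations, also without overlap. Sums of meninges and fibroblast markers, given below, did not overlap either, nor did those of smooth muscle and pericyte markers in U1 RNA. Oligodendrocyte markers in U1 RNA went the other way, with 420 to 451 CPM in MECS and 381 to 387 CPM in naive preparations. Their sums in input RNA overlapped, with 635 to 800 CPM in MECS and 581 to 883 CPM in naive preparations. Because bulk tissue was used, fewer cells of a type and less RNA per cell cannot be told apart. Counts lay mainly in annotated genes opposite another gene, and no source used here says whether strand was used in counting. Each annotated gene is therefore called a feature, and its value is not a transcript level. A feature lying opposite exactly 1 other gene was also assigned to that gene, its host, and counts were summed per host.

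Across 12184 features tested, MECS altered the ratio of U1 to input at 1 feature, or 0.00821% of those tested (edgeR quasi-likelihood test with preparation as a block, Benjamini-Hochberg adjusted p under 0.05). That feature was Ccdc107, a gene for a coiled-coil domain protein, and its ratio was higher after MECS. Among 3299 hosts no ratio passed the test, or 0%. At an unadjusted p under 0.05 there were 493 features, or 4.05%, of which 285 were higher and 208 lower after MECS, and 181 hosts, or 5.49%, of which 125 were higher and 56 lower. The median change in log2 ratio was 0.006 over features and 0.01 over hosts. With no replicate block, 0 features and 0 hosts passed, with 383 features and 109 hosts at an unadjusted p under 0.05. DESeq2 also called 0 features and 0 hosts, with 169 and 63 at that unadjusted p.

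Ccdc107 had a U1 level of 195, 219 and 218 CPM in MECS preparations 1 to 3, against 72.1, 97.3 and 133 CPM in naive preparations 1 to 3. Its input level was 1535, 666 and 605 CPM in MECS preparations and 1632, 1834 and 1105 CPM in naive preparations. All 3 MECS U1 libraries were above all 3 naive U1 libraries, while MECS input 1 lay among the naive inputs and the other two MECS inputs lay below them. The log2 ratio of U1 to input was -2.98, -1.6 and -1.47 in MECS preparations and -4.49, -4.23 and -3.05 in naive preparations. The ratios did not overlap, but MECS preparation 1 and naive preparation 3 were close. In both states the feature was far lower in U1 than in input. The change in log2 ratio was 1.88 (SE 0.30, 95% interval 1.27 to 2.49, adjusted p = 0.00721 by edgeR's quasi-likelihood test). With no replicate block it was 1.75 with an adjusted p of 0.122. The call was also lost without MECS preparation 2 (adjusted p = 0.466), without MECS preparation 3 (0.99974) or without naive preparation 1 (0.500), although the change stayed between 1.60 and 2.37 with any 1 preparation left out. Against naive brain the MECS level of Ccdc107 rose in U1 RNA by 1.03 on the log2 scale, and the MECS minus naive difference in input RNA was -0.73 (adjusted p = 0.143).

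Ccdc107 (chr4:43492900-43495921, plus strand, GRCm38) starts over Rmrp, the RNA component of the RNase MRP endoribonuclease, which is transcribed from the minus strand at chr4:43492788-43493058. Both annotated Rmrp features had 0 counts in all 12 libraries. Their counts and those of Ccdc107 cannot be told apart without the strand setting of the counting. The Rmrp transcript of the GENCODE M21 annotation is 271 bases long, and is shown because it runs opposite the start of the only feature called. The 124 capitals are the bases opposite a Ccdc107 exon.
Rmrp: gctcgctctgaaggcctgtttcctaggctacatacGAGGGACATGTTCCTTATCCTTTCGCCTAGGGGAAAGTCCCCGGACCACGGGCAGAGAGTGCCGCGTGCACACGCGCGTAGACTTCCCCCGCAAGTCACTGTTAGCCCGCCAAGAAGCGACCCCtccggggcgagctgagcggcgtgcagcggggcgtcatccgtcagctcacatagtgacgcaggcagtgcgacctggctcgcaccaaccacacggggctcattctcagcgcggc

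**Figure D1:**
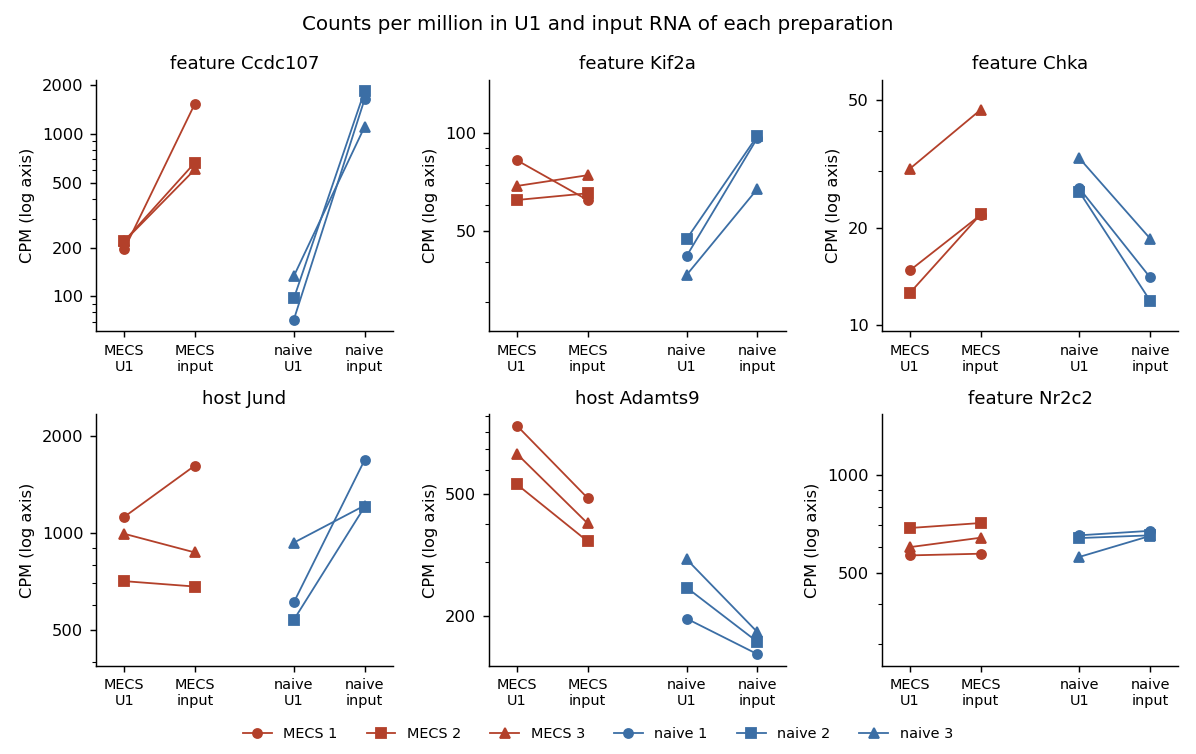
CPM (log axis) in U1 and input RNA, with a line joining the U1 and input libraries of each preparation and 3 MECS preparations left of 3 naive ones. Ccdc107 falls steeply to U1 in naive preparations and less so in MECS ones, Kif2a and Chka change slope between states without passing the test, host Jund has a flatter slope after MECS, host Adamts9 is higher after MECS in both kinds of RNA with a like slope, and Nr2c2 is level throughout. Host CPM use only counts assigned to hosts.

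The features next in line after Ccdc107 did not pass, the second smallest adjusted p being 0.888. Kif2a, a kinesin that depolymerizes microtubules, had log2 ratios of 0.41, -0.07 and -0.11 in MECS preparations and -1.20, -1.05 and -0.88 in naive preparations. Its ratio change was 1.13 (95% interval 0.57 to 1.69, adjusted p = 0.888 by the quasi-likelihood test). The features named in this paragraph and the next, and Mir3544 below, were picked among those whose ratios did not overlap, so their separation is not a result. Ratios that did not overlap between the states were found at 1155 features, or 9.48%, of which 578 were higher after MECS. Ccdc152, which overlaps the selenium transporter gene Selenop on the opposite strand, had ratios of -0.71, -0.72 and -0.84 in MECS preparations and -2.30, -1.13 and -1.31 in naive preparations. Its ratio change was 0.81 (interval 0.37 to 1.25), and it passed only when naive preparation 2 was left out. Cyfip1, an actin regulator that binds the fragile X protein, changed by 0.72 (interval 0.29 to 1.15) and the transcription regulator Zbtb2 by 1.32 (interval 0.64 to 2.0). None of these passed.

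Of the features with a lower ratio after MECS, Chka, a choline kinase, had log2 ratios of -0.56, -0.78 and -0.60 in MECS preparations and 0.89, 1.09 and 0.81 in naive preparations. All 3 MECS ratios were below 0 and all 3 naive ratios above it, on a mean of 28.3 counts a library. Its change was -1.58 (interval -2.45 to -0.70, adjusted p = 0.968). Ncoa3, a nuclear receptor coactivator, changed by -0.72 (interval -1.24 to -0.21), and its input level was 1.09 higher after MECS (adjusted p = 0.00286) while its U1 level differed by 0.38 (adjusted p = 0.505). Rgs11, a regulator of G protein signalling, changed by -2.22 (interval -3.64 to -0.81) on a mean of 13.4 counts. The synaptic adhesion gene Tenm4 changed by -0.96 (interval -1.66 to -0.26). None of these passed either.

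Mir3544, an imprinted-locus hairpin on chromosome 12, lies wholly opposite Mir337. Its U1 level was 47.5, 31.5 and 43.3 CPM in MECS preparations against 54.4, 41.4 and 46.2 CPM in naive preparations, and its input level was 15.2, 17.5 and 10.9 CPM in MECS preparations against 39.6, 49.1 and 37.9 CPM in naive preparations. The MECS inputs were all below the naive inputs (change -1.53, adjusted p = 0.00838), while the U1 groups overlapped. Its ratio change was 1.31 (interval 0.54 to 2.09, adjusted p = 0.995). Reads of 100 bp are longer than a mature miRNA, so these counts are not miRNA levels. The mature sequences, from RefSeq (GRCm38.p6), are shown because they are annotated on opposite strands of the same bases, with the seed (bases 2 to 8) in capitals. They overlap on opposite strands at chr12:109585818-109585839 (plus) and chr12:109585813-109585834 (minus).
mmu-miR-337-5p: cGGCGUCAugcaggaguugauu
mmu-miR-3544-3p: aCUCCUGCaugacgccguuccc

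Hosts gave more counts per unit and narrower intervals, and 0 of 3299 passed. The nearest was Jund, an AP-1 transcription factor gene without introns, read through the feature opposite it. Host Jund had U1 levels of 1123, 711 and 996 CPM in MECS preparations against 611, 540 and 935 CPM in naive preparations, and input levels of 1620, 684 and 872 CPM in MECS preparations against 1684, 1206 and 1218 CPM in naive preparations (CPM of hosts use only counts assigned to hosts). The U1 groups overlapped, and so did the inputs. Its log2 ratios were -0.53, 0.06 and 0.19 in MECS preparations and -1.46, -1.16 and -0.38 in naive preparations, with 1 MECS ratio below 1 naive ratio. The change was 0.89 (interval 0.50 to 1.27, adjusted p = 0.0803). It passed with 1.12 (adjusted p = 0.00864) without MECS preparation 1 and with 1.19 (adjusted p = 1.06e-08) without naive preparation 3. The hosts named next were picked among those whose ratios did not overlap, so their separation is not a result. Ratios did not overlap at 365 of 3299 hosts, or 11.1%. Kbtbd11, a BTB domain protein gene, changed by 0.76 (interval 0.39 to 1.12, adjusted p = 0.189). Bnip3, a mitophagy receptor, changed by 0.71 (interval 0.30 to 1.13) and the nuclear import receptor Kpnb1 by 0.61 (interval 0.22 to 0.99), neither past the threshold. On the lower side, the bone morphogenetic protein gene Bmp6 changed by -1.79 (interval -3.05 to -0.54). Bmp6 had only 2, 1 and 7 counts in naive input, against 36, 21 and 11 in MECS input. Its input level was 2.52 higher after MECS (adjusted p = 0.0200 by the quasi-likelihood test), while its U1 level differed by 0.69 (adjusted p = 0.304). Tgfb3, a transforming growth factor, changed by -1.10 (interval -1.77 to -0.43) and Actn1, an actin crosslinker, by -0.44 (interval -0.79 to -0.09). None of the 3 passed.

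A missing call does not show that a ratio stayed the same, so the size of change that the data allow was read from each 95% interval. For 4733 of 12184 features (38.8%) the whole interval lay within 2-fold, for 1204 (9.88%) within 1.5-fold and for 10137 (83.2%) within 4-fold. By an equivalence test of 2 one-sided tests with adjusted p under 0.05, a change of 2-fold or more was rejected at 4286 features (35.2%) and a change of 1.5-fold or more at 0. For hosts the interval lay within 2-fold at 1878 of 3299 (56.9%), within 1.5-fold at 747 and within 4-fold at 3044. The equivalence test rejected 2-fold at 1917 hosts (58.1%) and 1.5-fold at 263. The test of a change of more than 1.5-fold (glmTreat) called 0 features and 0 hosts.

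Interval width followed depth. The median half-width of the interval was 1.75 on the log2 scale for features with a mean below 10 counts, 1.19 from 10 to 30, 0.70 from 30 to 100, 0.47 from 100 to 300, 0.39 from 300 to 1000 and 0.38 above 1000. The share of features with an interval within 2-fold in these classes was 0%, 2.5%, 60.3%, 96.1%, 97.7% and 98.5%. Above about 300 counts more depth no longer narrowed the interval by much. Of the 2325 features with at least 50 counts in every library, 2263 (97.3%) had an interval within 2-fold, with a median half-width of 0.446. That selection requires counts in each library and so leaves out features that are low in any group.

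**Figure D2:**
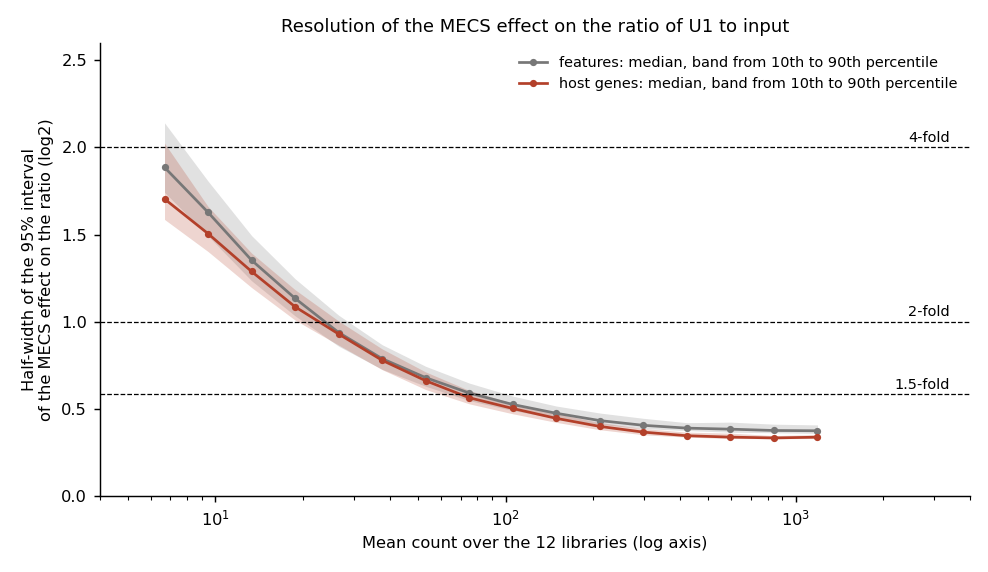
Median half-width of the 95% interval of the change in log2 ratio (MECS minus naive), against the mean count over the 12 libraries (log axis), for features and hosts, with the band from the 10th to the 90th percentile and dashed lines at 1.5-fold, 2-fold and 4-fold. Intervals narrow to below 2-fold above about 30 counts and level off near 0.38 for features and 0.34 for hosts.

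The narrowest intervals, chosen for being narrow, show what a ratio with no measured change looked like. Nr2c2, an orphan nuclear receptor, had U1 levels of 565, 687 and 600 CPM in MECS preparations against 652, 640 and 559 CPM in naive preparations, and input levels of 572, 712 and 641 CPM in MECS preparations against 674, 652 and 650 CPM in naive preparations. The ratio change was 0.04 (interval -0.32 to 0.40). The secreted protein gene Scube3 changed by -0.03 (interval -0.39 to 0.33) and the corepressor gene Ncor1 by 0.09 (interval -0.27 to 0.45). Among hosts, Tardbp, which encodes the RNA-binding protein TDP-43, changed by 0.15 (interval -0.17 to 0.48), the ubiquitin ligase gene Ube4b by 0.02 (interval -0.31 to 0.35) and the synaptic scaffold gene Nbea by 0.02 (interval -0.31 to 0.35). All 6 intervals lay within 1.5-fold.

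Resolution differed between kinds of feature along with their counts. Features mixed between exon and intron of a host, with a median mean count of 77.5, had an interval within 2-fold in 63.8% of cases, features over host exons (64.9 counts) in 54.8%, features in host introns (39.6 counts) in 46.0%, and features with no gene opposite (18.6 counts) in 22%. The median change was 0.04 for mixed features, 0.08 for 449 exon features, 0.03 for 3128 intron features and -0.03 for 3486 features with no gene opposite, beside 0.006 over all features. No exon, intron or mixed feature passed. Among the 3128 intron features, the 5′ splice site letters GGTAAG occurred on the host strand in 593 (19.0%), with a median change of 0.02, against 0.03 in the others. The polyadenylation signal AATAAA occurred on the host strand in 981 (31.4%), with a median change of 0.02, against 0.03 in the others. Only the host strand was searched. Features with a match were longer, at a median of 2502 bases with GGTAAG against 667 bases without.

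**Figure D3:**
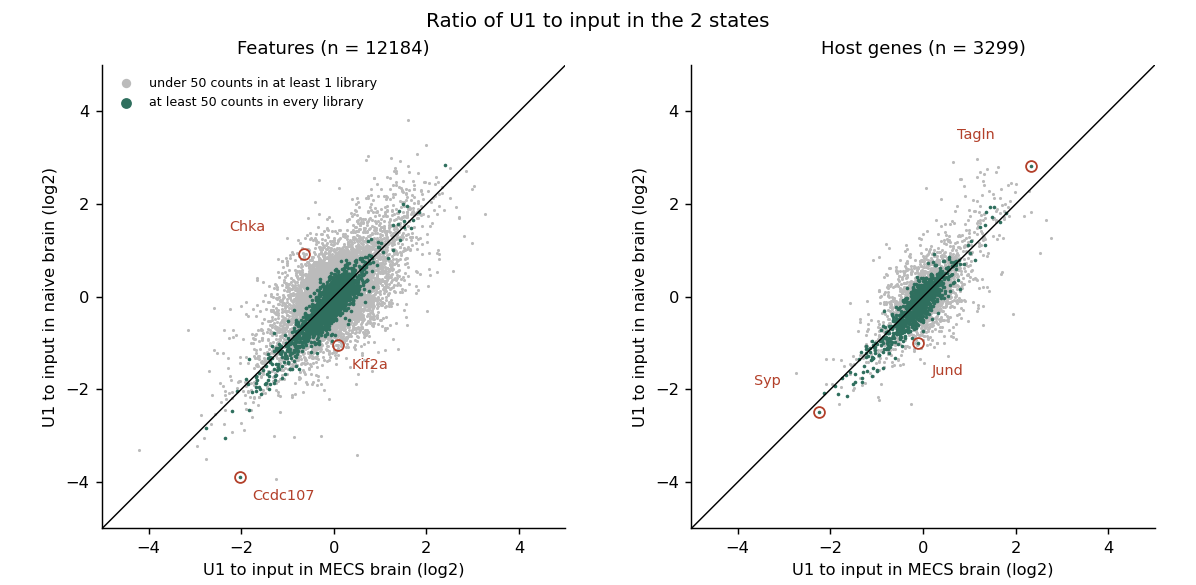
The log2 ratio of U1 to input in MECS brain (horizontal axis) against that in naive brain (vertical axis), for 12184 features at left and 3299 hosts at right, with the line of equal ratios. Features with at least 50 counts in every library follow the line, the others scatter about it, and Ccdc107 is the labelled feature farthest below it.

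The ratios themselves were alike in the 2 states. With U1 against input, 432 features (3.55%) were higher and 605 (4.97%) lower in MECS brain, and 586 (4.81%) were higher and 870 (7.14%) lower in naive brain. Called in the same direction in both were 287 higher and 505 lower features, and 0 were called in opposite directions, so 76.4% of the MECS calls and 54.4% of the naive calls were shared. Hosts gave 205 higher (6.21%) and 290 lower (8.79%) in MECS brain, and 262 higher (7.94%) and 399 lower (12.1%) in naive brain. Of 909 features called in 1 state only, 870 had a ratio of the same sign in the other state. As a description, the ratio in MECS correlated with that in naive brain at Pearson's r = 0.654 and Spearman's rho = 0.557 over 12184 features, and at 0.895 and 0.813 over the 2325 features with at least 50 counts in every library. Points share libraries and depth. The 2 arms share no library.

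Among the 10 features with the largest mean ratio over both states, a choice that favours like ratios, the change ran from -0.90 to 1.88, the highest at Ccdc107. Among the 10 such hosts it ran from -1.79 at Bmp6 to 0.25 at Syp, and 5 of the 10 moved by more than 2-fold, all to lower ratios and none past the threshold. Bmp6 had only 2, 1 and 7 counts in naive input. Feature mt-Nd1, annotated as a mitochondrial gene for a complex I subunit, had log2 ratios of -2.91, -2.66 and -3.16 in MECS preparations. In naive preparations they were -3.13, -3.18 and -3.25. The feature was lower in U1 than in input in every preparation, with a change of 0.26 (interval -0.32 to 0.84). Without the strand setting, its counts cannot be assigned to the mRNA. Among 13 features annotated as mitochondrial mRNAs, 7 were tested. All 7 were called lower with U1 in each state, beside 4.97% of all features in MECS and 7.14% in naive brain. An interval within 2-fold was found for 6 of the 7, at a median change of 0.08. Host Tagln, which encodes the smooth muscle protein transgelin, had ratios of 1.64, 2.77 and 2.66 in MECS preparations and 2.75, 2.70 and 2.94 in naive preparations. Its ratio was high in all 6, with a change of -0.48 (interval -0.88 to -0.07, adjusted p = 0.813). Host Syp, which encodes the synaptic vesicle protein synaptophysin, had ratios of -2.17, -1.84 and -2.71 in MECS preparations and -2.58, -2.65 and -2.26 in naive preparations, with a change of 0.25 (interval -0.13 to 0.64). Gja4, a gap junction gene of arterial endothelium, had ratios of 3.06, 2.17 and 3.46 in MECS preparations and 1.71, 3.03 and 2.90 in naive preparations, on a mean of 18.4 counts.

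Whole U1 profiles correlated slightly less between the states than between preparations of a state. Over 12184 features of log2 CPM, the 9 pairs of a MECS and a naive U1 library had a mean Pearson correlation of 0.931 (range 0.917 to 0.955), and the 6 pairs within a state 0.939 (range 0.924 to 0.960). MECS pairs ran from 0.947 to 0.960 and naive pairs from 0.924 to 0.929, so naive U1 libraries correlated less with each other than MECS ones did. Naive U1 2, the deepest library, correlated with MECS U1 1 to 3 at 0.948, 0.954 and 0.955, above every naive pair. Naive U1 1 and 3 were the shallowest U1 libraries (773074 and 1149385 gene counts). The part of depth in the lower naive correlations was not tested. The difference between the between-state and within-state means was -0.0082 (2-sided exact permutation test over 20 splits, p = 0.1, the smallest that 3 against 3 allows). It was 1.97e-05 without MECS preparation 1 and -0.024 without naive preparation 2. Input libraries gave a difference of -0.0064 (exact p = 0.1). For the per-preparation ratios, the mean correlation was 0.385 between states and 0.372 within states (difference 0.013, exact p = 0.9). The root mean square difference of the ratios was 0.798 between states and 0.802 within states (exact p = 1). Averaged over preparations, U1 levels of MECS and naive brain correlated at 0.970, and 98.0% of features were within 2-fold of each other. Input levels correlated at 0.972, with 97.7% within 2-fold.

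**Figure D4:**
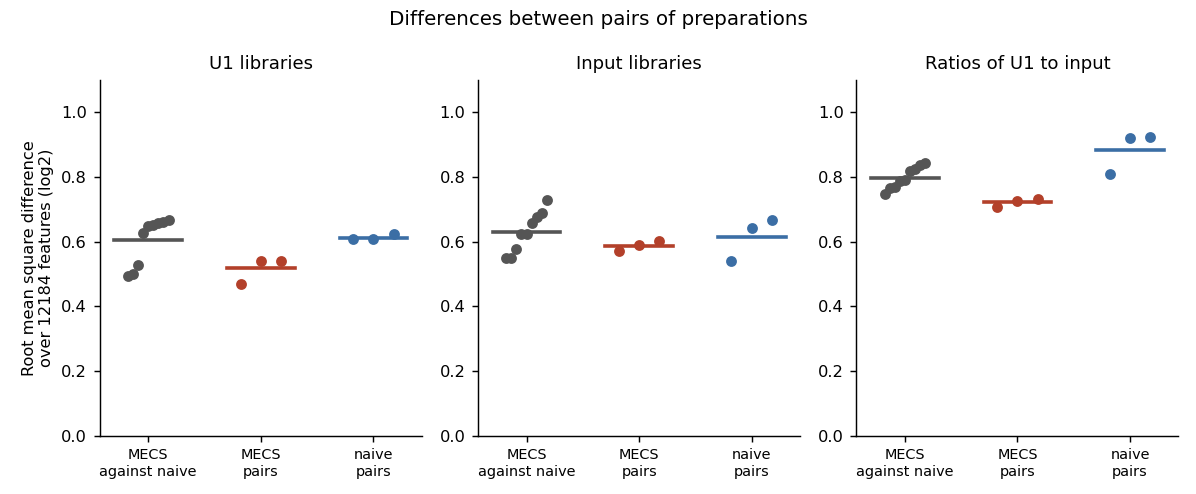
Root mean square difference in log2 CPM between pairs of U1 libraries and pairs of input libraries, and in log2 ratio of U1 to input between pairs of preparations, over 12184 features. Points are pairs and bars their means, and for U1 the 9 pairs across states overlap the pairs within MECS and within naive brain.

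The spread of the ratios across features was smaller in each MECS preparation than in each naive one. The SD of the log2 ratio over 12184 features was 0.642, 0.656 and 0.679 in MECS preparations and 0.788, 0.798 and 0.722 in naive preparations. All MECS values were below all naive values, with means of 0.659 ± 0.019 in MECS and 0.769 ± 0.042 in naive preparations (SD, n = 3 each, exact permutation p = 0.1, the smallest possible). Counting noise widens this SD, and the shallowest libraries, naive input 2 and naive U1 1, are both naive. With every library thinned to the smallest gene total the difference was -0.077, against -0.110 without thinning, with the groups still apart (exact p = 0.1). Over features with at least 50 counts in every library the SD was 0.486, 0.409 and 0.496 in MECS preparations and 0.617, 0.530 and 0.512 in naive preparations. The root mean square difference between U1 and input libraries of a preparation was 0.642 to 0.679 in MECS and 0.722 to 0.798 in naive preparations. It is nearly the same quantity as the SD over 12184 features and adds no second measure. The part of anything but depth in this difference was not tested.

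MECS changed the level of few features, and none that passed in both kinds of RNA had a called ratio change. MECS against naive brain gave 37 higher and 6 lower of 11141 features in U1 RNA (0.386% called), and 53 higher and 10 lower of 10402 in input RNA (0.606% called). Among hosts, U1 RNA gave 14 higher and 3 lower of 3186 (0.534% called), and input RNA 24 higher and 10 lower of 3024 (1.12% called). For 21 features that rose in both and 3 that fell in both, 0 ratios were called, beside 1 of all 12184 features. Their median ratio change was 0.03 and -0.14. The changes of the 21 ran from -0.82 to 1.15, the highest at the ubiquitin ligase gene Ube3b (interval -0.11 to 2.41), and 2 had an unadjusted p under 0.05. The interval lay within 2-fold at 16 of the 21 and within 4-fold at 19. Their median rise was 1.38 in U1 RNA and 1.33 in input RNA. A feature had to change in the same direction in both kinds of RNA to enter this group, which favours a small ratio change.

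Host Adamts9, a gene for an extracellular matrix protease, had U1 levels of 836, 538 and 677 CPM in MECS preparations against 196, 248 and 306 CPM in naive preparations, and input levels of 485, 351 and 401 CPM in MECS preparations against 150, 165 and 177 CPM in naive preparations. Both kinds of RNA separated the states fully. The level rose by 1.44 on the log2 scale in U1 RNA and by 1.34 in input RNA, while the ratio change was 0.12 (interval -0.27 to 0.51). Host Ppm1h, a protein phosphatase gene, rose by 1.41 in U1 RNA and by 1.39 in input RNA, with a ratio change of 0.02 (interval -0.36 to 0.40). For Sorcs3, a sorting receptor gene of neurons, the rise was 1.44 in U1 RNA and 1.43 in input RNA, with a wider ratio interval of -0.68 to 0.71. Pde10a, a cyclic nucleotide phosphodiesterase gene, had a ratio change of 0.05 (interval -0.29 to 0.40) and Prkca, a protein kinase C gene, one of -0.08 (interval -0.45 to 0.28). Itgad, an integrin gene, had 0.06 with an interval of -0.83 to 0.94. These 6 ratio intervals all held 0 and lay within 2-fold.

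At a pair of hosts that rose in both kinds of RNA the ratio interval did not hold 0. Host Amph, which encodes the synaptic endocytosis protein amphiphysin, rose by 1.39 in U1 RNA and by 1.00 in input RNA, a ratio change of 0.43 (interval 0.05 to 0.82, adjusted p = 0.835). Host Kcnq1, a potassium channel gene whose intronic counts come largely from the antisense feature Kcnq1ot1, rose by 0.72 in U1 RNA and by 1.21 in input RNA, a ratio change of -0.49 (interval -0.87 to -0.11, adjusted p = 0.789). Neither passed. Feature Hif1a, annotated as the hypoxia-inducible factor gene, rose by 2.0 in U1 RNA and by 1.70 in input RNA, with a ratio change of 0.49 (interval -0.07 to 1.05). Of the features that fell in both, Lca5, a ciliary protein gene, had a ratio change of -0.12 (interval -0.63 to 0.40) and the organic anion transporter gene Slc22a8, a marker of meninges and fibroblasts, one of -0.25 (interval -1.08 to 0.58). The summed level of all 12 meninges and fibroblast markers was 50.3 to 99.2 CPM in MECS U1 and 131 to 237 CPM in naive U1, and 50.0 to 82.7 CPM in MECS input and 88.8 to 124 CPM in naive input, both without overlap. The part of meningeal tissue in these results was not tested.

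**Figure D5:**
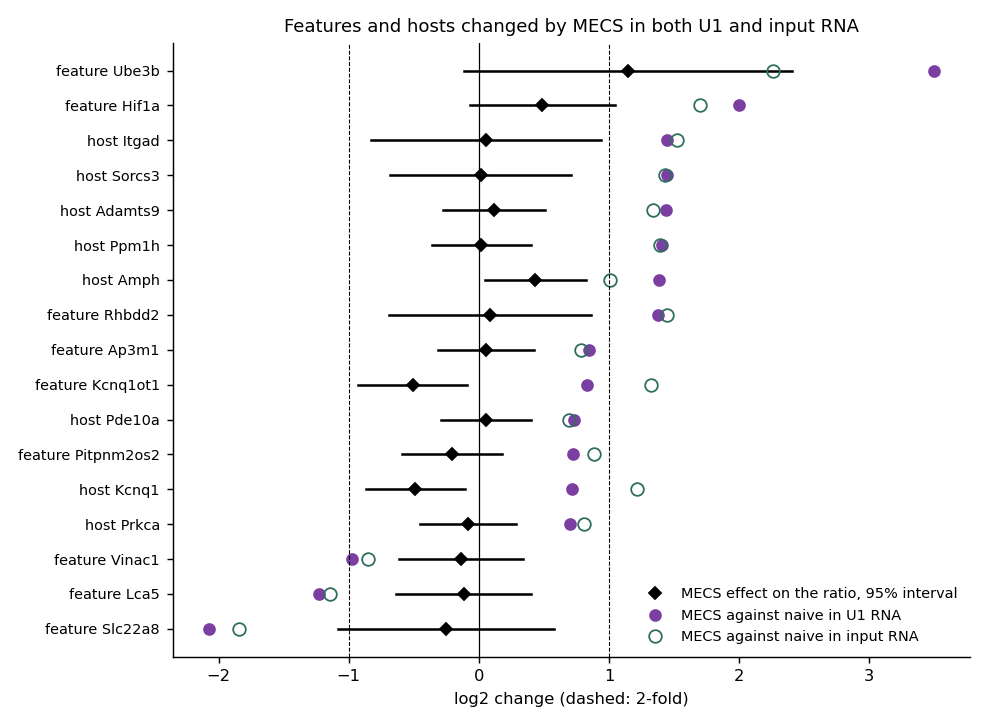
Log2 change of MECS against naive brain in U1 RNA (filled circles) and in input RNA (open circles), and the change in log2 ratio with its 95% interval (diamonds), for 8 hosts and 9 features that passed in both kinds of RNA. Levels move by up to 3.5 on the log2 scale, and the ratio intervals of all but Kcnq1ot1, Kcnq1 and Amph hold 0.

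None of the members of 23 gene lists had a called ratio change, by own symbol or as host. Over all tested, 1 of 12184 features (0.00821%) and 0 of 3299 hosts were called, so the lack of calls is not particular to these lists. Of 12 tested transcription factors induced by activity, 4 had a ratio change above 0 and 8 below, at a median of -0.24, and 0 had an interval within 2-fold, so this list was not resolved at that size. Its member Junb had a change of 0.99 (interval 0.21 to 1.78) on a mean of 39.6 counts a library. Of 7 tested synaptic effectors of activity, 3 had an interval within 2-fold, at a median of -0.14. Homer1, a postsynaptic scaffold gene with an activity-induced short form, had log2 ratios of -0.88, 0.14 and -0.69 in MECS preparations and 0.46, -1.09 and -0.22 in naive preparations, which overlapped throughout. Arc, an activity-induced synaptic gene, had U1 levels of 12.5, 11.8 and 9.55 CPM in MECS preparations against 8.85, 9.83 and 10.7 CPM in naive preparations, with a ratio change of 0.18 (interval -0.96 to 1.32).

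Genes of the U1 particle and of splicing had no called ratio change, like all but 1 of 12184 features and all 3299 hosts. Of 11 tested U1 proteins and associated factors 3 had an interval within 2-fold by own symbol, and 3 of 5 as hosts, with medians of -0.10 and 0.19, beside 38.8% of all features and 56.9% of all hosts. Snrnp70 had U1 levels of 38.9, 27.6 and 34.4 CPM in MECS preparations against 40.5, 33.1 and 56.9 CPM in naive preparations, with a ratio change of -0.63 (interval -1.43 to 0.17). The groups overlapped. Luc7l3, a U1-associated splicing factor, changed by -1.48 (interval -2.59 to -0.36, adjusted p = 0.995). Of 15 splicing regulators read as hosts, 14 had an interval within 2-fold, at a median of 0.09, and of 31 by own symbol 6 had one, at a median of -0.17. Khdrbs1, which encodes the splicing regulator Sam68, was not tested, with 1 to 6 counts per library. Of 17 cleavage and polyadenylation factors 7 had an interval within 2-fold, at a median of -0.15.

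Lists of neuronal genes were bounded more often as hosts than by own symbol. As hosts, of 19 presynaptic genes 17 had an interval within 2-fold (median 0.03), of 14 postsynaptic genes 13 (median 0.02), of 16 ion channel genes 13 (median 0.11) and of 28 very long neuronal genes 21 (median 0.05), beside 56.9% and a median of 0.01 over all hosts. By own symbol the counts were 10 of 23 presynaptic (median -0.13), 3 of 24 postsynaptic (median -0.18), 9 of 25 ion channel (median -0.14) and 1 of 21 very long neuronal genes (median -0.16), beside 38.8% and a median of 0.006 over all features. Among 14 nuclear long noncoding RNAs by own symbol the median was -0.50, 10 were below 0 and 4 had an interval within 2-fold. As hosts, 6 of them were tested, with 3 above and 3 below 0, a median of -0.05 and 5 intervals within 2-fold. The list member Malat1, an abundant nuclear RNA of speckles, had U1 levels of 485, 397 and 587 CPM in MECS preparations against 573, 874 and 737 CPM in naive preparations, and a ratio change of -0.57 (interval -1.0 to -0.13, adjusted p = 0.995). Rian, a noncoding RNA of the same imprinted locus as Mir337, changed by -0.88 (interval -1.61 to -0.16). Of 18 intronless genes 10 were above 0, at a median of 0.20, and 0 had an interval within 2-fold.

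No marker of another cell type had a called ratio change, like all but 1 of 12184 features and all 3299 hosts. The 5 smooth muscle and pericyte markers read as hosts had a median log2 ratio of 1.79 in MECS brain and 2.32 in naive brain, and 4 of 5 changes were below 0 at a median of -0.48. The 5 were called higher with U1 in MECS brain and 4 of them in naive brain, beside 6.21% and 7.94% of all hosts. By own symbol, of 11 tested, 1 was called higher in MECS and 4 in naive brain, with median log2 ratios of 0.20 and 0.52. Of these 11, 3 changes were above 0 and 8 below, at a median of -0.22. Host Mylk, the smooth muscle myosin kinase gene, changed by -0.63 (interval -1.08 to -0.17, adjusted p = 0.769). The summed level of all smooth muscle and pericyte markers by own symbol was 542 to 592 CPM in MECS U1 and 642 to 735 CPM in naive U1, and 533 to 575 CPM in MECS input and 506 to 622 CPM in naive input. The 3 astrocyte markers read as hosts had changes of 0.41 to 0.63, all above 0, while of 9 by own symbol 5 were above and 4 below 0, at a median of 0.006. Host Slc1a2, the main astrocyte glutamate transporter gene, changed by 0.51 (interval 0.11 to 0.91, adjusted p = 0.789). Host Slc32a1, the vesicular transporter gene of inhibitory neurons, changed by 0.51 (interval -0.01 to 1.03). The part of cell composition in these values was not tested.

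The U1 to input ratios of class shares overlapped between the states, although some shares themselves did not. The share of mitochondrial features had a log2 ratio of U1 to input of -2.39 ± 0.42 in MECS and -2.47 ± 0.50 in naive preparations (SD, n = 3 each, exact permutation p = 0.8). For features in host introns it was 0.05 ± 0.09 in MECS and 0.09 ± 0.15 in naive preparations (exact p = 0.8), and for features over host exons 0.29 ± 0.26 in MECS and 0.10 ± 0.05 in naive preparations (exact p = 0.3), a difference of 0.19 that was -0.01 without ribosomal RNA and mitochondrial features. The ribosomal RNA feature CT010467.1 took 14.6, 12.5 and 16.9% of gene counts in MECS U1 and 11.6, 7.45 and 6.01% in MECS input, against 17.3, 16.3 and 20.4% in naive U1 and 13.8, 14.6 and 15.6% in naive input. The MECS inputs were all below the naive inputs. Features in host introns took 25.5, 26.1 and 25.1% in MECS U1 and 22.9, 26.0 and 25.0% in MECS input, against 23.3, 24.5 and 21.4% in naive U1 and 20.9, 21.4 and 22.5% in naive input, so MECS shares were higher without overlap in both kinds of RNA. The log2 ratio of CT010467.1 was 0.33, 0.75 and 1.49 in MECS and 0.33, 0.15 and 0.38 in naive preparations, with a difference of 0.57 (exact p = 0.2) that was 0.25 without MECS preparation 3. All adjusted p over the 7 classes were 0.7 or 0.8.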

How the data were processed

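Each of the 12 libraries came as a deposited table of whole-number read counts per gene identifier, made by the authors and not normalized. Libraries were rRNA-depleted total RNA from a stranded kit, read as 100 bp single ends, per the labels' protocols. The build mm10 and, with no stated role, HISAT2 2.2.0, Salmon 1.4, StringTie 2.1.3, Trimmomatic 0.39, DESeq2 and FastQC are listed per the submitters' processing notes. No source used here gives the counting program, its strand setting or the annotation. Rows naming no gene held 98.2 to 98.6% of listed reads and were left out.

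The members and gene lists were chosen with earlier results of these data known. Of 55471 identifiers, 55230 matched GENCODE M21 (GRCm38). A host is the only opposite-strand gene over at least 50% of a feature's exon bases, with at most 10% over any other gene. Counts were tested with edgeR 4.0.16 (R 4.3.3) by the quasi-likelihood test, with TMM scaling, filterByExpr, preparation as a block, and a U1 term for each state. Adjusted p-values are Benjamini-Hochberg over all features or hosts tested. The SE is from the fitted coefficients and not from the F statistic as first planned, because F was slightly negative at some features. Per-preparation ratios are log2 of CPM plus 0.5, and profiles are log2 CPM with a prior count of 2. Replicates are separate preparations by their labels, which do not say that each is a separate animal. The p-values and intervals rest on the spread between preparations, with the variance of each feature or host drawn towards that of the others. Host tests used 60.4 degrees of freedom from 12 libraries, so most of the variance information came from other hosts. The SE was kept from falling below that of counting noise alone. The pairing rests on the protocol, in which input is taken from the precipitated lysate, and on title prefixes. Deviations of U1 and input of 1 preparation from their group means correlated at 0.114, 0.219 and 0.116 in MECS and at 0.016, -0.098 and -0.016 in naive preparations. In MECS each input correlated best with the U1 library of its own prefix. No naive input did, the highest values with another naive U1 library being 0.054, 0.073 and 0.063. The counts therefore do not show the pairing in naive preparations.

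Named genes were features or hosts that passed, the 10 smallest p in each direction with ratios that do not overlap between states (taken for higher ratios too, where only 1 passed), list members with the smallest p, features changed in both kinds of RNA, and those with the narrowest intervals or largest ratios. Predicted and clone symbols were left out. Alternatives were other scalings, filters and fits (limma 3.58.1, DESeq2 1.42.0), and leaving out each preparation. Scripts were tested on simulated data.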

Additional observations from a re-analysis of the deposited data

Results flagged for a closer look

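Ccdc107 stands apart because its ratio of U1 to input differed between MECS and naive brain by the test of the difference itself. The change in log2 ratio was 1.88. Over 16 alternatives the change lay between 1.60 and 2.37, and it passed the threshold in 9 of them, with adjusted p from 7.32e-13 to 0.99974 (edgeR quasi-likelihood, limma or DESeq2, Benjamini-Hochberg). The ratio was higher in 3 of 3 MECS preparations than in any naive preparation, though MECS preparation 1 and naive preparation 3 were close. Ratios also did not overlap at 1155 of 12184 features (9.48%), so this separation does not set Ccdc107 apart.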

How the results depend on the processing

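Pairing by preparation mattered for the 1 call: with no replicate block 0 features passed, and Ccdc107 had a change of 1.75. The number of features called was 2 with no filter, 0 with at least 10 counts in every library, 0 by limma on per-preparation ratios, 0 by DESeq2, and 0 to 8 with 1 preparation left out. Hosts called were 3 with no filter, 2 at a mean CPM of at least 1, and 0 to 9 with 1 preparation left out, the 9 without naive preparation 3. Host Jund then had 1.19, Kbtbd11 1.00, Bnip3 0.96 and Slc1a2 0.73, all past the threshold.

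Features bounded under 2-fold by the equivalence test numbered 2440 with no filter, 0 by limma on ratios, 2221 by DESeq2 and 2678 to 3291 with 1 preparation left out. Features with an interval within 2-fold numbered 2989 at a 99% interval and 3674 to 4078 with 1 preparation left out, against 1204 within 1.5-fold and 10137 within 4-fold. Hosts within 1.5-fold and 4-fold numbered 747 and 3044. U1 against input, limma on ratios called 80 higher and 97 lower features in MECS and 272 higher and 314 lower in naive brain, and DESeq2 called 231 higher in MECS and 302 higher in naive brain. With 1 preparation left out, the counts were 200 to 540 higher and 310 to 773 lower in MECS, and 358 to 561 higher and 495 to 878 lower in naive brain. MECS against naive in U1 RNA gave 88 calls with all 12 libraries in 1 fit, against 43.

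With 1 preparation left out, the U1 correlation difference ran from -0.0239 to 1.97e-05, the U1 root mean square difference from 0.00347 to 0.108 and that of ratios from -0.0527 to 0.0528. The SD difference ran from -0.134 to -0.0960 and that of the slope of a preparation's ratios on the mean ratios of the other preparations from -0.131 to -0.0340. Class share differences ran from -0.157 to 0.353 (mitochondrial), 0.253 to 0.832 (CT010467.1), -0.121 to 0.0161 (introns), 0.0510 to 0.300 (exons), -0.204 to -0.0507 (no gene opposite), 0.217 to 0.717 (small RNA) and 0.00179 to 0.0144 (reads in no gene). The exon share difference was -0.00991 without ribosomal RNA and mitochondrial features, against 0.194. The change of mt-Nd5 ran from -0.215 to 0.462 and that of host Sorcs3 from -0.41 to 0.53. The causes of these shifts were not tested. Depth limits the intervals of single features: below a mean of 30 counts few were bounded even at 2-fold.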
